A study of Mus musculus with 9 samples.

Results

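Messenger RNA of mouse pancreas with acute pancreatitis treated with Qingyi Decoction (the QYD group) was compared with that of pancreas from mice that received only saline (Control), over all genes of the deposited count table. The libraries were taken by their labels: QYD 65, 66 and 68 and Control 43, 44 and 45 are 6 of the 9 libraries of the series, and the table lists 17132 genes, of which 12828 were tested. The remaining libraries, Model 56, 57 and 59, come from mice with the same injections and saline in place of the decoction, and they are set beside the comparison where a value turns on it. All mice were C57BL/6 of 22 to 25 g, and their sex and age are not given in the labels. Every mouse received 7 intraperitoneal injections at hourly intervals. In QYD and Model these held caerulein, at 50 mg/kg as the series' design text gives it, with lipopolysaccharide (LPS) joined to the last one, and in Control they held saline. QYD mice were given the decoction, a herbal preparation whose name is spelled QTD in the treatment labels, at 0 and 8 h, when Control and Model mice were given saline. Pancreas was taken at 24 h. QYD and Control thus differ in caerulein, LPS and decoction together, and in this comparison their parts cannot be told apart. The labels do not say in words that each library came from 1 mouse, so the p-values below measure the spread between these libraries.

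Most of the pancreas consists of acinar cells, which make digestive enzymes, fold them in the endoplasmic reticulum (ER) and store them in zymogen granules until a meal releases cholecystokinin. Caerulein is an analogue of that hormone. Given repeatedly, it overstimulates acinar cells, activates their enzymes inside the cell and sets off oedema, cell injury and an influx of neutrophils and monocytes, and LPS adds a systemic inflammatory signal. Injured acinar cells are known to lose enzyme production and to take on features of duct cells for a time.

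Reads were assigned to genes as estimated counts, and levels are given per library as counts per 1000000 counts of the library (CPM), in the order 43, 44 and 45 for Control and 65, 66 and 68 for QYD. Where levels of both groups follow each other, Control comes first. CPM is not corrected for gene length, so levels are compared between libraries and not between genes. Each gene was tested on 2 scales with edgeR's quasi-likelihood test over all 9 libraries. The composition scale uses TMM factors, which relate a gene to the typical gene of the library. On library totals no factor was used, and a gene is related to all counts of the library. A log2 fold change is QYD minus Control, the value after ± is its standard error (SE), and a call is a Benjamini-Hochberg adjusted p under 0.05. A single value is on the composition scale, and of a pair the second is on library totals, unless the sentence says otherwise. A gene is said below to have risen or fallen when it was called in that direction on both scales, and a call on 1 scale is named with its scale. In bulk tissue, fewer cells of a type and less RNA per cell cannot be told apart.

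The 2 scales lie far apart here, and a few abundant transcripts filled most of the Control libraries. The 31 digestive enzyme genes took 81.1, 80.7 and 80.2% of all counts in Control and 44.8, 49.4 and 51.6% in QYD. The groups did not overlap. All genes other than these and the ribosomal protein and respiratory chain genes took 17.8% ± 0.45 (SD, n = 3) in Control and 47.9% ± 3.60 in QYD. The difference in enzyme share was -32.05 percentage points, with p = 0.1 in a two-sided exact permutation test, the smallest p that 3 libraries against 3 can give. TMM factors were 0.359, 0.389 and 0.397 in Control and 1.79, 1.54 and 1.36 in QYD. The median gene stood at 0.06 on the composition scale and at 2.09 on library totals, so a gene that kept pace with the typical gene stood about 2.03 log2 units higher in CPM in QYD.

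**Figure D1:**
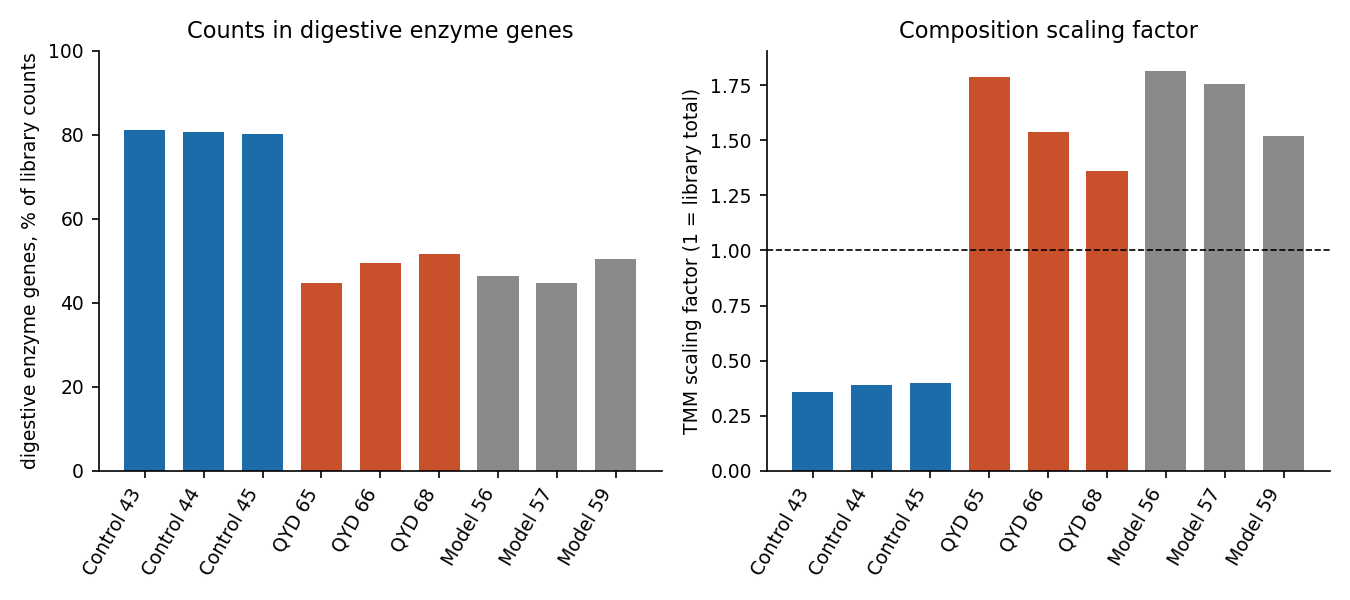
Percent of all estimated counts in the 31 digestive enzyme genes (left panel) and the TMM scaling factor (right panel) of each of the 9 libraries. Control libraries held 80.2 to 81.1% of their counts in these genes and QYD libraries 44.8 to 51.6%, and the factors were 0.359 to 0.397 in Control and 1.36 to 1.79 in QYD.

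Libraries held 19112923 to 20212744 counts, and replicates differed by more than sampling noise in every group. Control 45 stood apart from Control 43 and 44 in genes that were higher in QYD. Among the 1557 genes that rose, with no overlap of the groups on either scale and a mean of at least 10 CPM in QYD, Control 45 was the highest Control library in 1151, with a median of 1.29 times the mean of Control 43 and 44. Over all 12828 genes it was highest in 5199, with a median ratio of 1.06. By a chi-square of counts per gene, in which abundant genes weigh most, Control 44 differed more from the others. It was 43.6 against Control 43 and 48.8 against Control 45, and 16.3 between Control 43 and 45. Where leaving out 1 library moved the composition value of a called gene by over 1.5 times, the value without that library is given in the same paragraph. The same holds where it changed a call that is named below. Genes chosen after their values were seen, which are listed with the processing, are not covered by this, and for genes not called such moves are given only in part. List counts of 5 or fewer moved by at most 3 with 1 library left out, and larger ones that moved by over 1.5 times are given with those libraries. QYD 68 stood apart from QYD 65 and 66 in lymphocyte genes, which were uneven within Model too, as described with them. The labelled tissue was checked against acinar markers, all 12 of which were tested: their summed level was 566410, 547430 and 549930 CPM in Control, against 321200, 351520 and 349420 in QYD.

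Promoter windows of 5 genes are printed because each stands for a group of genes described below and holds a motif known for that group. They run from 250 bases before to 50 bases after the annotated start, 5′ to 3′ on the gene's strand, from RefSeq with build GRCm38.p6. Capitals mark the motif matches, searched on both strands. Cel encodes an acinar lipase whose window (chr2:28563354-28563653, minus strand) holds CANCTG and TTCCCA, the elements bound by the acinar factor PTF1. Derl3 and Hspa5 encode an ER degradation factor and the chaperone BiP, and their windows (chr10:75893148-75893447 and chr2:34771840-34772139, plus strand) hold the ER stress response element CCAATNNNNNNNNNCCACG. Cxcl1 encodes a neutrophil-attracting chemokine and its window (chr5:90890995-90891294, plus strand) holds GGGANNNNCC, a form of the NF-kB site, in 2 places, the second of which also matches on the other strand, shifted by 1 base. Isg15 encodes a ubiquitin-like interferon-induced protein and its window (chr4:156200769-156201068, minus strand) holds GAAANNGAAA, the core of the interferon-stimulated response element, in 3 overlapping copies.
Cel: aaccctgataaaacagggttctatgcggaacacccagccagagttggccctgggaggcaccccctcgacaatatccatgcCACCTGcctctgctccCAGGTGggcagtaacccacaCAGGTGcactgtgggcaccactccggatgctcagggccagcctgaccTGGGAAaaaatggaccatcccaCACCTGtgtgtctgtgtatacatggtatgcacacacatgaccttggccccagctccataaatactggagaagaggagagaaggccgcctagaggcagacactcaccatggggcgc
Derl3: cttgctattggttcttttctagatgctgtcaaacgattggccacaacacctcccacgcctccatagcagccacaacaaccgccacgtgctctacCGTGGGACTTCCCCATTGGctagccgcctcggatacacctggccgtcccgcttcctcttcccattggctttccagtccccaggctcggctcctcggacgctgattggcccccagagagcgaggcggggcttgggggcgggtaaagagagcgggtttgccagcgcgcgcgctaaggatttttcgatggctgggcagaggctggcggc
Hspa5: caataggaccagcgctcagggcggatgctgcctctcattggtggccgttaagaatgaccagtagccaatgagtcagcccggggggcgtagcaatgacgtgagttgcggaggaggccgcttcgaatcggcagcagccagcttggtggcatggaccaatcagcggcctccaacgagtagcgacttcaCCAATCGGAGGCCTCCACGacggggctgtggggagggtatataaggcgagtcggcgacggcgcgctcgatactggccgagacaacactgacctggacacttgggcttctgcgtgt
Cxcl1: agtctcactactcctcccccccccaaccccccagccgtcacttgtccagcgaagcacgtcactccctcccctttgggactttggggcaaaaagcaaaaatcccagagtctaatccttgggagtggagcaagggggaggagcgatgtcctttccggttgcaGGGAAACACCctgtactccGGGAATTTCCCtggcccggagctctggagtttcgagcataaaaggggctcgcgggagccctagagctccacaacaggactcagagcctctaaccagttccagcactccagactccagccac
Isg15: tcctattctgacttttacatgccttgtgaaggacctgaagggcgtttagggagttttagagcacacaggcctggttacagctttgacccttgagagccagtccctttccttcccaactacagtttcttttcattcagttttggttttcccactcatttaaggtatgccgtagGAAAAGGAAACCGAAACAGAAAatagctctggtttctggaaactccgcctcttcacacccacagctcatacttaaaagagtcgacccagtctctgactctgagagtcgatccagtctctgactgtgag

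Of all 12828 genes, 5222 (40.7%) were called on the composition scale, 2624 of them higher (20.5%) and 2598 lower (20.3%). On library totals 12155 (94.8%) were called, 12028 higher (93.8%) and 127 lower (0.99%). Joining the scales, 2624 genes (20.5%) rose and 127 (0.99%) fell. A further 1964 (15.3%) were lower on the composition scale and higher on library totals, 507 (3.95%) were lower on the composition scale with no call on library totals, and 7440 (58.0%) were higher on library totals only. Every gene called higher on the composition scale was also called higher on library totals, and every gene called lower on library totals was also called lower on the composition scale. The direction of most lower calls thus depends on the scale, while the 127 genes that fell do so on both. The groups did not overlap, with QYD higher, in 93.0% of genes on library totals and 27.8% on the composition scale, and with QYD lower in 1.01% and 24.7%; they did so on both scales in 27.8% and 1.01%. Without Control 45 the composition scale gave 2429 higher and 2502 lower calls, without Control 44 it gave 2108 and 2266, and without QYD 68 it gave 2228 and 2224.

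**Figure D2:**
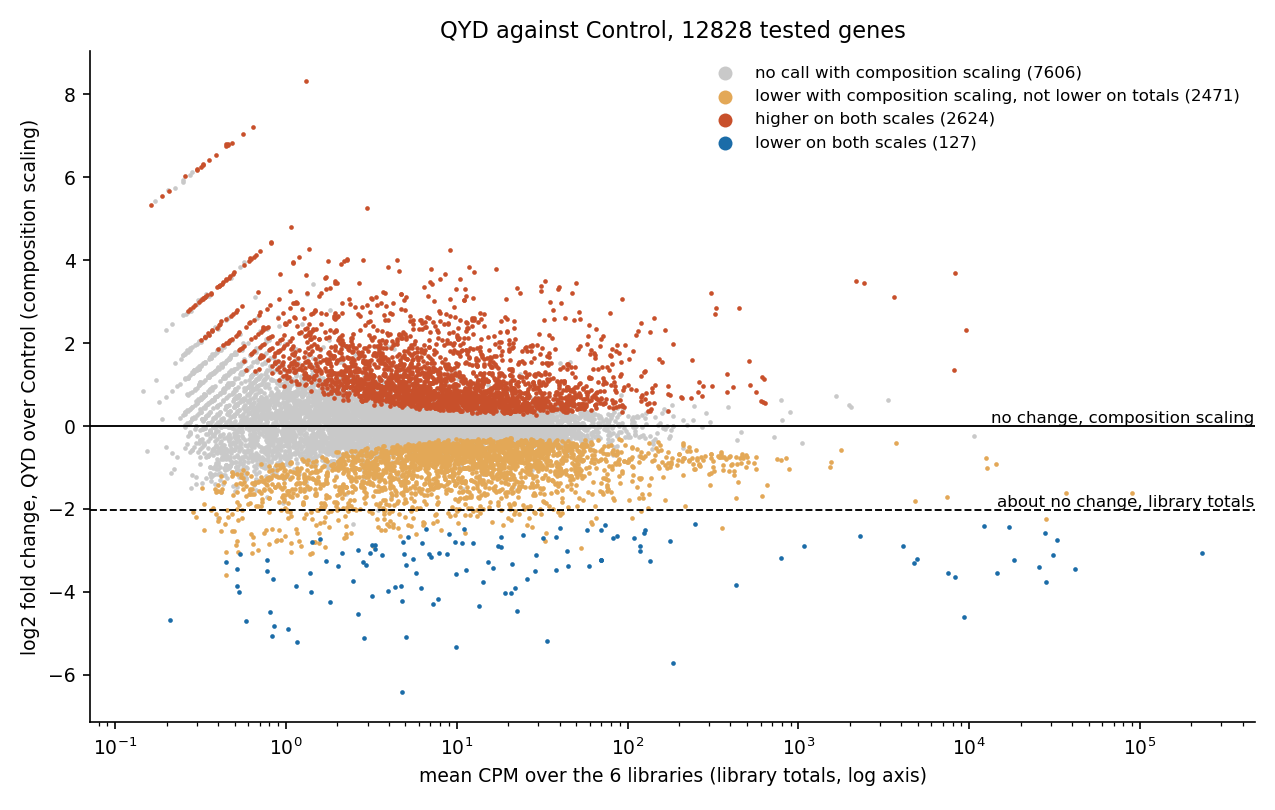
Log2 fold change on the composition scale against mean CPM (log axis) for the 12828 tested genes, coloured by their calls on the 2 scales. The solid line is no change on the composition scale and the dashed line, at -2.03, lies about where library totals show no change: the 127 genes that fell lie below it and the 2624 that rose lie above the solid line.

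Among genes that fell, had groups with no overlap and averaged at least 10 CPM in Control, the 10 lowest values included several genes known from acinar cells and the secretory pathway. Serpini2 (pancpin; chr3:75242357-75270078), a serpin of acinar cells, stood at 402, 234 and 394 CPM in Control, against 28.6, 22.9 and 27.9 in QYD. Every QYD library was below every Control library. The log2 fold change was -5.72 ± 0.48 (adjusted p = 1.4e-05) on the composition scale and -3.70 ± 0.36 on library totals. Tmed11 (chr5:108777235-108795363), a cargo receptor of the p24 family in the early secretory pathway, stood at 61.0, 46.0 and 74.3 CPM in Control, against 8.15, 5.41 and 6.74 in QYD, with -5.19 ± 0.34 (adjusted p = 3.7e-06) and -3.16 ± 0.29 in the same order. Colipase (Clps; chr17:28558210-28560766), the cofactor of pancreatic lipase, went from 16543, 17760 and 13915 CPM to 2891, 2538 and 2680. All 3 QYD libraries were alike and low, at -4.60 ± 0.25 (adjusted p = 1.4e-06) on the composition scale and -2.57 ± 0.16 on library totals.

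Other genes among the 10 lowest have roles in methyl group metabolism, amino acid uptake, the ER and signalling. Gnmt, which uses S-adenosylmethionine to methylate glycine, stood at 35.3, 42.8 and 35.5 CPM in Control, against 7.37, 7.93 and 5.82 in QYD (-4.46 ± 0.29 on the composition scale, -2.43 ± 0.25 on library totals). Gamt, which makes creatine, changed by -4.03 ± 0.25 and -1.97 ± 0.25. Slc38a5, a glutamine transporter, stood at 25.5, 21.8 and 19.9 CPM and 5.44, 3.76 and 4.41 (-4.34 ± 0.19 and -2.30 ± 0.20). Their QYD libraries were all below their Control libraries. Derl3, whose promoter is printed above, went from 33.6, 37.8 and 27.9 CPM to 8.83, 5.77 and 10.1 (-4.02 ± 0.28 and -2.004 ± 0.23). The neuropeptide galanin (Gal) went from 36.1, 37.3 and 29.5 CPM to 11.3, 7.98 and 8.91 (-3.90 ± 0.22 and -1.87 ± 0.20). Fxyd1, a regulator of the sodium pump, changed by -4.29 ± 0.23 and -2.25 ± 0.28. Sostdc1, a secreted antagonist of BMP signalling, was uneven in Control at 4.72, 29.1 and 20.3 CPM, with Control 43 lowest, and low throughout QYD at 2.93, 1.24 and 1.32 CPM (-5.33 ± 0.56 and -3.30 ± 0.53).

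Among genes that rose, had groups with no overlap and averaged at least 10 CPM in QYD, the 10 highest values included several genes known from neutrophils and monocytes. Il1b (chr2:129364569-129371164), the cytokine interleukin 1 beta, stood at 0.1003, 0.0495 and 0.554 CPM in Control, against 17.7, 11.6 and 24.4 in QYD. Control 45 was above the other 2 Control libraries, and all QYD libraries were above it. The log2 fold change was 4.26 ± 0.55 (adjusted p = 0.0002) on the composition scale and 6.22 ± 0.49 on library totals, and 5.85 on the composition scale without Control 45, a value that rests on 3 counts in Control 43 and 44 together and so depends on the test's prior count. S100a9 (chr3:90692630-90695721), a calcium-binding protein that fills neutrophil cytosol, stood at 1.10, 0.989 and 4.64 CPM and 106, 69.4 and 118, with 3.45 ± 0.48 (adjusted p = 0.0003) and 5.45 ± 0.51, and 4.51 on the composition scale without Control 45. Mmp8, neutrophil collagenase, stood at 0.201, 0.247 and 1.41 CPM and 27.3, 28.1 and 45.2 (3.78 ± 0.50 and 5.75 ± 0.48). Here too Control 45 was the highest Control library, and without it the composition value was 5.20.

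Further genes among the 10 highest were Slfn4, a myeloid schlafen, at 0.151, 0.297 and 0.756 CPM in Control, against 24.8, 22.1 and 22.5 in QYD, and Retnlg, a resistin-like protein of neutrophils, at 0.151, 0.198 and 1.06 and 24.1, 17.6 and 32.2. The chitinase-like proteins Chil3 of macrophages (0.903, 0.396 and 3.02 CPM, then 50.1, 53.6 and 88.3) and Chil1 (0, 0 and 1.01 CPM, then 16.7, 11.7 and 18.7) followed. The formyl peptide receptor Fpr1 stood at 0.151, 0.0989 and 1.06 CPM and 20.6, 17.7 and 22.8. In each of these 5 genes the groups did not overlap and Control 45 was the highest Control library. Their composition values were 3.83 ± 0.57 for Slfn4, 3.72 ± 0.55 for Retnlg, 3.51 ± 0.52 for Chil3, 3.54 ± 0.65 for Chil1 and 3.54 ± 0.47 for Fpr1. Without Control 45 the values were 4.63, 5.10, 4.61 and 5.30 for Slfn4, Retnlg, Chil3 and Fpr1, and Chil1 was then at 0 in all of Control and is given no fold, and it stood at 2.95 without Control 44. The remaining ones are not known as leukocyte genes: Psrc1, a microtubule-associated p53 target, stood at 0.151, 0.0495 and 0.706 CPM and 14.3, 12.3 and 14.4 (3.48 ± 0.42, 5.03 without Control 45). Hoga1, a mitochondrial enzyme of hydroxyproline breakdown, stood at 0.201, 0.198 and 0.605 CPM and 13.5, 13.4 and 23.2 (3.66 ± 0.48, 4.37 without Control 45).

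**Figure D3:**
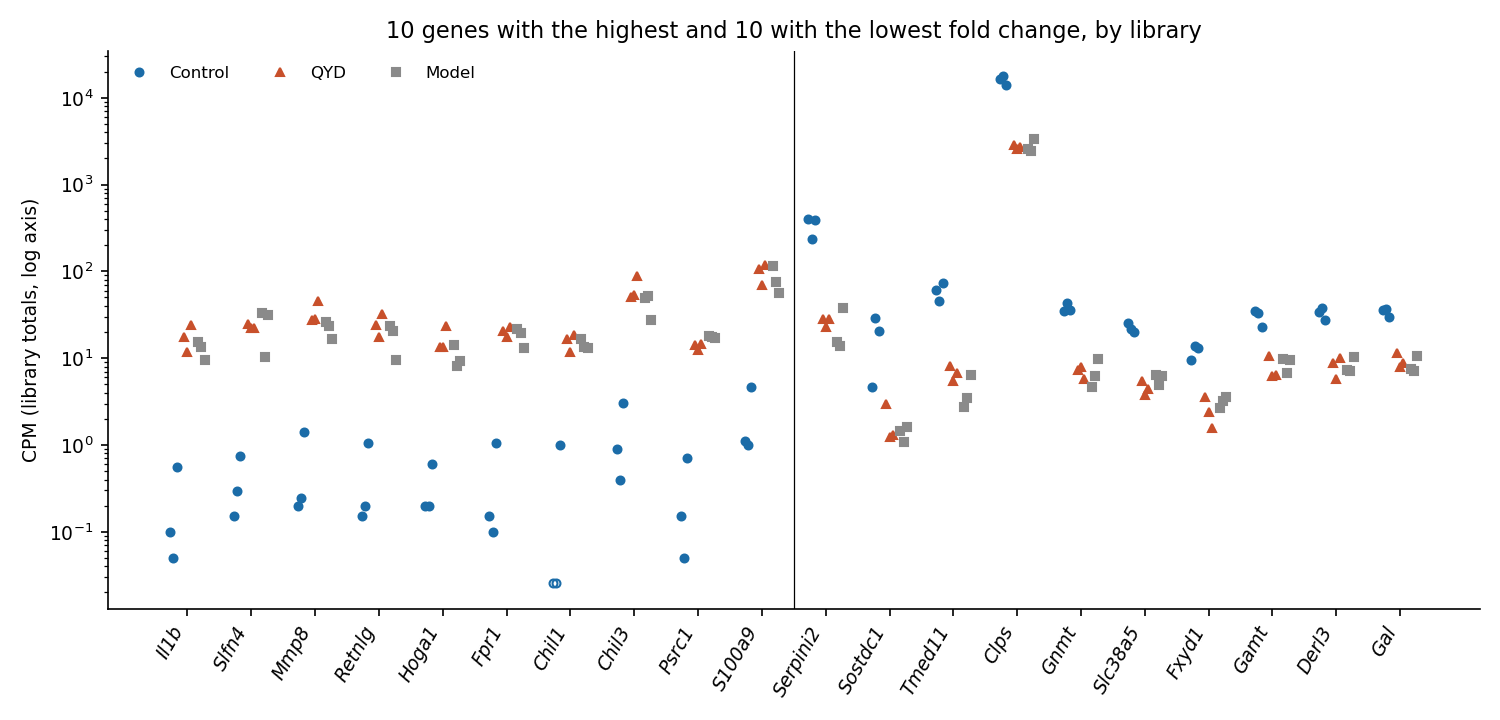
CPM (log axis) of the 10 genes with the highest and the 10 with the lowest composition values among named genes, 1 symbol per library for Control, QYD and Model. Open symbols are libraries with 0 counts, drawn at the level of 0.5 counts: in the upper genes Control 45 is the highest Control library and all QYD libraries lie above it, and in the lower genes all QYD libraries lie below every Control library.

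Digestive enzymes were lower in QYD as a group, and most were so on both scales. Of 31 tested enzyme genes, all of which reached the filter's minimum in every Control library, 29 were lower on the composition scale, against 20.3% of all genes. None was higher, and the median was -2.89. On library totals 23 were lower, 5 were higher and 3 had no call, with a median of -0.89, against 0.99% of all genes lower there. These genes are themselves most of the counts in Control, so their values on library totals are bounded by their own share. Amy2a2, Amy2a3 and Amy2a4, which carry identical values, are each counted among the 29 and among the 23. The gene with the most counts in Control, the amylase Amy2a5 (chr3:113249178-113258699), which digests starch, stood at 336850, 270290 and 324860 CPM in Control, against 132790, 157150 and 159300 in QYD. Every QYD library was below every Control library, and the change was -3.06 ± 0.25 (adjusted p = 1.3e-05) on the composition scale and -1.05 ± 0.12 on library totals.

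The size of the difference varied among enzymes. Among lipid enzymes, pancreatic lipase (Pnlip) went from 44990, 49773 and 35926 CPM to 12538, 12029 and 14555 (-3.75 ± 0.25 on the composition scale, -1.74 ± 0.15 on library totals). The bile salt-stimulated lipase Cel, whose promoter is printed above, went from 20449, 25900 and 17872 CPM to 7670, 7610 and 7249 (-3.53 ± 0.22 and -1.51 ± 0.15). Both were lower in every QYD library than in any Control library. The lipase relative Pnliprp2 changed by -2.66 ± 0.17 and -0.65 ± 0.13. Among proteases, carboxypeptidase Cpa1 went from 22900, 31253 and 23072 CPM to 10377, 11059 and 11649 (-3.23 ± 0.22 and -1.22 ± 0.14) and the elastase Cela2a from 57419, 70438 and 54850 to 20862, 23291 and 23306 (-3.45 ± 0.23 and -1.44 ± 0.14). The elastases Cela1 and Cela3b changed by -2.59 ± 0.19 and -2.43 ± 0.19 on the composition scale and -0.56 ± 0.13 and -0.42 ± 0.13 on library totals. Ctrl and Ctrc, a chymotrypsin-like protease and the chymotrypsin that controls trypsin, changed by -3.55 ± 0.22 and -3.68 ± 0.16, and by -1.53 ± 0.15 and -1.66 ± 0.16 on library totals. Pancreatic ribonuclease (Rnase1) changed by -3.65 ± 0.28 and -1.61 ± 0.21.

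A few enzymes stood on opposite sides of the 2 scales. Chymotrypsinogen B (Ctrb1; chr8:111686510-111691010) stood at 70233, 86056 and 77597 CPM in Control, against 102659, 105840 and 99249 in QYD. On library totals every QYD library was above every Control library, by 0.40 ± 0.11 (adjusted p = 0.0041), while the composition value was -1.62 ± 0.20 (adjusted p = 0.00016). The trypsinogen Try5 stood at 32153, 27519 and 36787 CPM and 33118, 40077 and 51964, with overlapping groups on library totals (0.38 ± 0.16) and -1.61 ± 0.26 on the composition scale. The kallikrein Klk1 stood at 6229, 6709 and 6999 CPM and 8298, 7744 and 8638, at -1.71 ± 0.17 on the composition scale and 0.31 ± 0.12 on library totals. The trypsinogen Prss2 was lower on the composition scale (-2.23 ± 0.22) with no call on library totals (-0.23 ± 0.12). Trypsinogens and amylases are near-identical gene copies whose reads an estimation step can share out, and Amy2a2, Amy2a3 and Amy2a4 carry identical values, so values of single members of these families are uncertain. The call of Try5 on library totals was lost without Control 43, Control 44, QYD 66 or QYD 68 (0.19 to 0.40), and Prss2 was called lower there without QYD 68 (-0.33, adjusted p = 0.03). The count of enzymes higher on library totals was 3 without Control 43 or QYD 68.

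Products of the zymogen granule were divided. Of 32 tested members of 34, 20 were lower on the composition scale and 2 higher, against 20.3% and 20.5% of all genes, and the median was -0.85. On library totals 8 fell and 20 were higher, with a median of 1.196, against 0.99% and 93.8% of all genes there and a median of 2.09. Zg16, a lectin of the granule membrane, went from 6164, 7838 and 6676 CPM to 3239, 3633 and 2272 (-3.21 ± 0.24 and -1.18 ± 0.19 on the composition scale and library totals). Sycn, syncollin, a granule protein, changed by -2.89 ± 0.19 and -0.88 ± 0.14, and the pancreas-specific disulphide isomerase Pdia2 by -3.17 ± 0.21 and -1.16 ± 0.16. Aqp12 and Aqp8, water channels of acinar cells, changed by -2.69 ± 0.16 and -3.54 ± 0.41, and by -0.68 ± 0.14 and -1.53 ± 0.42 on library totals. These 5 genes fell. Gp2, the main granule membrane protein, was lower on the composition scale only, at -1.80 ± 0.19, with 0.22 ± 0.14 on library totals. The scavenger protein Dmbt1 stood at 8733, 9393 and 9202 CPM and 23148, 15345 and 20395: it was higher on library totals (1.11 ± 0.15) and lower on the composition scale (-0.92 ± 0.19). The cholecystokinin receptor Cckar was not called on the composition scale (-0.78 ± 0.36) and was higher on library totals (1.28 ± 0.34). The recycling GTPase Rab11a (0.71 ± 0.18) and the zinc transporter Slc30a2 (0.62 ± 0.14) rose. Gp2 was called higher on library totals without Control 44 (0.31, adjusted p = 0.049).

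Transcription factors of acinar cells went different ways. Of 19 tested, 11 were lower on the composition scale and 2 higher, against 20.3% and 20.5% of all genes, with a median of -0.84. On library totals 1 fell and 13 were higher, against 0.99% and 93.8% of all genes there. Rbpjl, the acinar partner in the PTF1 complex, stood at 22.8, 24.5 and 18.6 CPM in Control, against 16.6, 14.9 and 10.99 in QYD, and changed by -2.68 ± 0.29 (adjusted p = 7.5e-05) on the composition scale and -0.63 ± 0.26 on library totals. Bhlha15 (Mist1), which shapes the secretory apparatus, stood at 70.7, 65.4 and 68.6 CPM and 64.0, 37.8 and 13.5, at -2.93 ± 0.55 and -0.83 ± 0.49, the second not called, with QYD 68 lowest. Ptf1a itself stood at 8.48, 7.47 and 10.6 CPM and 23.6, 35.3 and 15.5: it was not called on the composition scale (-0.55 ± 0.25, adjusted p = 0.11) and was higher on library totals (1.48 ± 0.26). Nr5a2, a nuclear receptor that maintains acinar identity, was likewise not called on the composition scale (-0.27 ± 0.13), and was higher on library totals (1.76 ± 0.17). Xbp1, the factor that enlarges the ER of secretory cells, rose from 162, 203 and 182 CPM to 1228, 1122 and 931 (0.55 ± 0.13 and 2.59 ± 0.16). The PTF1 elements CANCTG and TTCCCA occurred together in 11 of 27 promoter windows of enzyme genes (40.7%), against 13.7% of all 32851 windows; a match is a description and not a site. The call of Rbpjl on library totals was lost without Control 43, Control 44 or QYD 68 (-0.48 to -0.61). Bhlha15 was called lower there without QYD 65 (-1.41, adjusted p = 0.024), and Ptf1a was called lower on the composition scale without QYD 66 (-0.91, adjusted p = 0.0073).

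Genes of the ER mostly stood below the typical gene. Of 52 genes of translocation and export, 36 were lower on the composition scale and 2 higher, against 20.3% and 20.5% of all genes, with a median of -0.62. On library totals 49 were higher (median 1.41), close to the 93.8% of all genes, and none fell. Sec61a1, the channel of the translocon, changed by -1.03 ± 0.13 and 1.01 ± 0.17. Sec11c, a subunit of signal peptidase, was lower on the composition scale (-2.10 ± 0.15) and not called on library totals (-0.07 ± 0.15). Ssr4 and Mcfd2, which serve translocation and cargo export, also had values near 0 on library totals, 0.27 ± 0.14 and 0.26 ± 0.17, against -1.75 ± 0.17 and -1.78 ± 0.15. Mcfd2 was called higher there without QYD 68 (0.39, adjusted p = 0.039).

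Of 46 genes of ER folding and the unfolded protein response, 33 were lower on the composition scale and 2 higher (Xbp1 and Pdia3), with a median of -1.23. The shares of all genes were 20.3% and 20.5%. On library totals 8 fell and 33 were higher, against 0.99% and 93.8% of all genes, with a median of 0.79. The 8 that fell included Derl3, Fkbp11 (-3.27 ± 0.23 and -1.24 ± 0.19) and the peroxiredoxin of the ER, Prdx4 (-2.51 ± 0.17 and -0.50 ± 0.14). Herpud1, which joins the ER degradation complex, went from 178, 152 and 126 CPM to 97.5, 78.3 and 78.6, with -2.89 ± 0.21 (adjusted p = 6.4e-06) and -0.84 ± 0.18. BiP (Hspa5), by contrast, went from 169, 155 and 165 CPM to 361, 283 and 334, higher in every QYD library on library totals (1.00 ± 0.15) and lower in every one on the composition scale (-1.03 ± 0.14). The chaperone Hsp90b1 was not called on the composition scale (-0.44 ± 0.19, against 1.59 ± 0.21). Ddit3 (CHOP), the stress factor linked to cell death, was not called on the composition scale either (-0.43 ± 0.22, against 1.59 ± 0.24), and Atf4 was lower there (-1.25 ± 0.14, against 0.78 ± 0.17). Hsp90b1 and Ddit3 were called lower on the composition scale without Control 44 (-0.64, adjusted p = 0.012) and without Control 45 (-0.63, adjusted p = 0.037).

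The ER stress response element occurred in 10 of 46 promoter windows of this list (21.7%), against 39 of 32851 windows in all (0.119%). The 10 genes did not share a direction. Derl3 and Ero1lb fell, Syvn1 was lower on the composition scale with no call on library totals, Hspa5, Creld2, Dnajc3 and Pdia6 were lower on the composition scale and higher on library totals, and Calr, Canx and Hsp90b1 were higher on library totals only. Among other genes with the element, the stress-induced ER protein Creld2 stood at -1.02 ± 0.14 and 1.02 ± 0.17.

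Genes of amino acid and one-carbon metabolism, which feed protein synthesis and methyl transfer in acinar cells, were mostly lower relative to the typical gene. Of 36 tested members of 40, 24 were lower on the composition scale, against 20.3% of all genes, and 10 fell, against 0.99% of all genes. Their medians were -1.14 and 0.89. Aldh1l2, a folate dehydrogenase of mitochondria, went from 23.2, 25.1 and 17.2 CPM to 7.79, 6.39 and 5.57 (-3.77 ± 0.24 on the composition scale and -1.73 ± 0.23 on library totals). Inmt, an indole methyltransferase, went from 7.88, 3.27 and 4.23 CPM to 0.261, 0.876 and 0.658 (-5.11 ± 0.55 and -3.08 ± 0.50). Cbs and Cth, which carry sulphur from homocysteine to cysteine, changed by -2.46 ± 0.20 and -2.82 ± 0.33, and by -0.44 ± 0.18 and -0.81 ± 0.28 on library totals. Phgdh, the entry to serine synthesis, and Mthfd2 were lower on the composition scale (-1.92 ± 0.21 and -2.13 ± 0.26) and not called on library totals (0.09 ± 0.20 and -0.08 ± 0.24). The asparagine synthetase Asns and the transporter subunit Slc7a5 were higher on library totals (0.62 ± 0.16 and 0.63 ± 0.26) and lower on the composition scale (-1.41 ± 0.16 and -1.42 ± 0.31). Calls on library totals were lost for Cbs without Control 43, Control 44, QYD 65, QYD 66 or QYD 68 (-0.30 to -0.45), for Cth without Control 43 or QYD 65 (-0.59 to -0.67) and for Slc7a5 without Control 44, Control 45, QYD 65 or QYD 66 (0.37 to 0.63).

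Among genes of basic cell machinery, all 75 cytosolic ribosomal protein genes were lower on the composition scale (median -0.82) and higher on library totals (median 1.198), and their share of all counts went from 1.42% ± 0.01 (SD, n = 3) to 3.16% ± 0.11. Of 78 nuclear genes of the respiratory chain, 69 were lower on the composition scale and none was higher (median -0.70), while 77 were higher on library totals (median 1.34). Of all genes 20.3% were lower on the composition scale and 93.8% higher on library totals, so the counts on library totals are near those of all genes. Proteasome subunits, which degrade tagged proteins, stood otherwise: 25 of 44 rose, against 20.5% of all genes, and 2 were lower on the composition scale, with medians of 0.46 and 2.49. The core subunit Psma1 went from 5.47, 6.73 and 7.66 CPM to 53.3, 53.5 and 45.2 (0.91 ± 0.12 and 2.94 ± 0.18). Psmb10, a subunit of the immunoproteasome, and Psmd6 were the 2 lower ones, at -1.46 ± 0.14 and -0.76 ± 0.11.

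**Figure D4:**
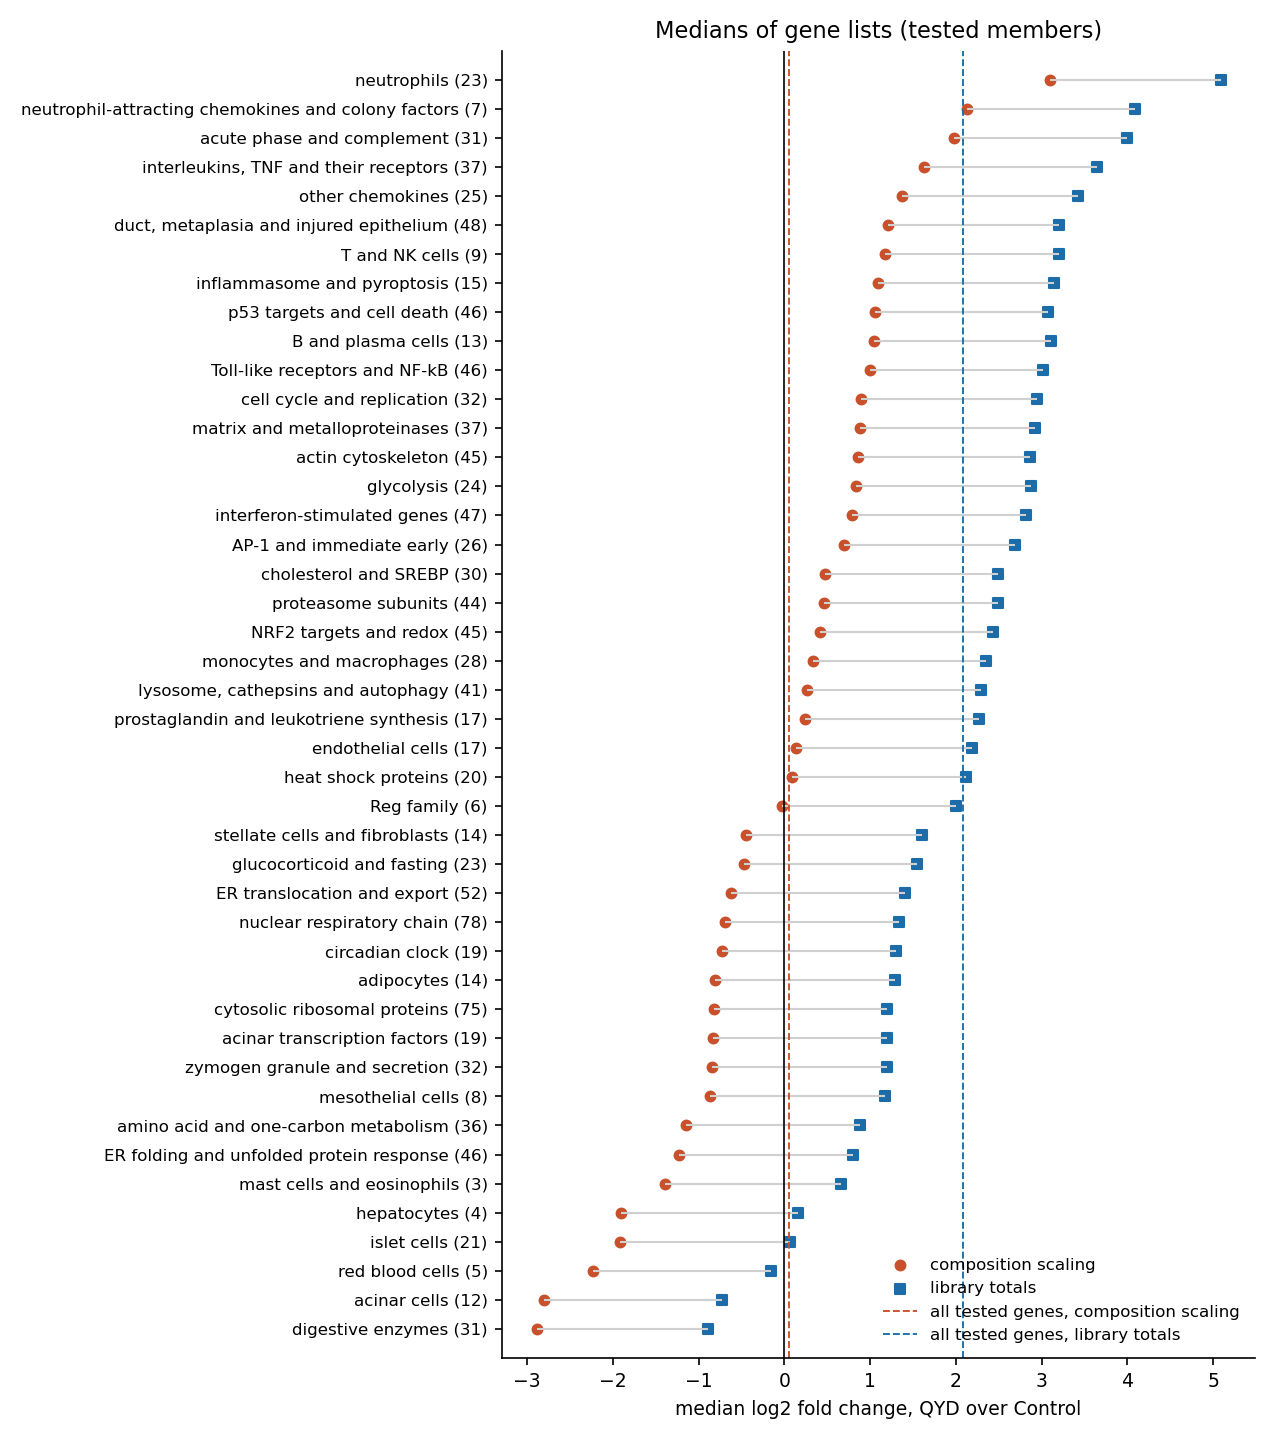
Median log2 fold change of each gene list on the composition scale and on library totals, with dashed lines at the medians of all 12828 genes (0.06 and 2.09). Of the lists drawn, digestive enzymes and acinar markers lie lowest on both scales, and neutrophil markers lie highest.

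Many inflammatory genes were near 0 in Control and passed the filter on low counts through the injured libraries, so the counts of such lists describe their tested members and support nothing further. The filter asked for about 0.515 CPM (10 counts) in at least 3 libraries. Of 13 neutrophil-attracting chemokines and colony-stimulating factors 7 were tested, 2 of which reached that level in all Control libraries, and all 7 rose, against 20.5% of all genes. Cxcl1 (chr5:90891245-90893121) stood at 0.201, 0.0495 and 1.36 CPM in Control, against 27.4, 15.5 and 22.3 in QYD. Every QYD library was above Control 45, the highest Control library, with 3.32 ± 0.54 (adjusted p = 0.00082) on the composition scale and 5.33 ± 0.54 on library totals, and 5.37 on the composition scale without Control 45. Cxcl5, another ligand of the receptor Cxcr2, stood at 0.652, 0.297 and 3.78 CPM and 67.2, 52.3 and 61.4 (3.25 ± 0.52, 4.93 without Control 45), and Cxcl2 at 0.201, 0 and 0.554 and 10.2, 6.90 and 10.5 (3.18 ± 0.54). Csf1, which sustains macrophages, changed by 1.65 ± 0.27 and 3.70 ± 0.34, and Csf3, which releases neutrophils from marrow, by 1.71 ± 0.47 and 3.73 ± 0.44. Cxcl3 rose too (2.13 ± 0.63), a call that was lost without Control 43, Control 44 or QYD 68 (1.58 to 1.89), while the value was 3.50 without Control 45. The NF-kB form GGGANNNNCC printed above in Cxcl1 occurred in 5 of 10 promoter windows of this list (50.0%) and in 20.7% of all windows. Without Control 45 Cxcl2 stood at 4.46 and Csf3 at 2.53 on the composition scale, and without Control 44 Cxcl2 stood at 2.58.

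Of 25 tested other chemokines, 8 of which reached the minimum in all Control libraries, 11 rose, against 20.5% of all genes, and none was lower. Ccl2, which attracts monocytes, stood at 0.602, 0.148 and 0.958 CPM in Control, against 19.0, 16.1 and 11.3 in QYD, with 2.72 ± 0.38 (adjusted p = 0.00034) and 4.75 ± 0.41. Cxcl16, a chemokine made in membrane-bound form, stood at 1.35, 1.24 and 2.22 CPM and 31.2, 24.6 and 30.7 (2.15 ± 0.32 and 4.16 ± 0.35). Cxcl10, an interferon-induced ligand, differed within QYD at 11.5, 8.55 and 2.08 CPM, against 2.81, 0.148 and 0.504 in Control, and was not called on the composition scale (0.56 ± 0.76, adjusted p = 0.58). Ccl2 stood at 5.35 on library totals without Control 45. Cxcl10 was called higher on the composition scale without Control 43 (2.45, adjusted p = 0.043). The count that rose was 7 without Control 44.

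Among interleukins, TNF and their receptors, 22 of 37 tested genes rose and 2 were lower on the composition scale, against 20.5% and 20.3% of all genes. The minimum was reached in all Control libraries by 19 of the tested genes. Beside Il1b, its antagonist Il1rn went from 0.602, 0.445 and 2.72 CPM to 43.7, 36.0 and 57.9 (3.20 ± 0.46, 4.42 without Control 45) and its decoy receptor Il1r2 from 0.401, 0.0989 and 1.11 to 14.0, 13.6 and 25.6 (3.07 ± 0.53, 4.13 without Control 45). All 3 were thus higher in QYD with Control 45 highest in Control. The interleukin 6 family cytokine Lif was near 0 in Control (0.0502, 0.0495 and 0.101 CPM) and stood at 4.39, 3.76 and 5.37 CPM in QYD. Receptors of that family split: Osmr rose (1.92 ± 0.28 and 3.94 ± 0.31), while Lifr and Il11ra1 were lower on the composition scale (-0.91 ± 0.13 and -1.49 ± 0.16) and higher on library totals (1.13 ± 0.16 and 0.53 ± 0.20). Downstream, Stat3 changed by 1.00 ± 0.14 and its feedback inhibitor Socs3, from 2.51, 1.24 and 5.14 CPM to 72.6, 83.1 and 59.2, by 2.57 ± 0.34. Tnf stood at 0.1003, 0.0495 and 0.302 CPM and 5.17, 3.19 and 3.95 (2.72 ± 0.47), and its receptors Tnfrsf1a and Tnfrsf1b changed by 0.81 ± 0.11 and 1.83 ± 0.32. Without Control 45 Socs3 stood at 3.19 and Tnf at 3.68. The call of Il11ra1 on library totals was lost without Control 43, Control 45, QYD 65 or QYD 66 (0.38 to 0.49).

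Toll-like receptors sense microbial products such as LPS and signal through MyD88 to NF-kB. Of 46 genes of this route, 34 of which reached the minimum in all Control libraries, 30 rose and 1 was lower on the composition scale, against 20.5% and 20.3% of all genes. Their medians were 0.99 and 3.02. Of the LPS receptor parts, the co-receptor Cd14 went from 3.11, 1.93 and 12.2 CPM to 152, 153 and 150.3: Control 45 lay between the other Control libraries and QYD, and the change was 2.72 ± 0.48 (adjusted p = 0.0012), or 3.86 without Control 45. Tlr4 itself changed by 1.00 ± 0.28, Ly96 (MD-2) by 1.47 ± 0.22, Tlr2 by 1.96 ± 0.26 and the adaptor Myd88 by 1.12 ± 0.16. Irak1, a kinase of the route, was the lower one, at -1.11 ± 0.12 on the composition scale and 0.92 ± 0.15 on library totals. Feedback inhibitors of NF-kB rose as well: Tnfaip3 (A20) went from 0.602, 0.693 and 1.81 CPM to 31.4, 16.7 and 18.4 (2.37 ± 0.36), Zc3h12a from 0.652, 1.04 and 2.97 to 43.4, 37.2 and 33.3 (2.59 ± 0.40), Tnip1 changed by 1.86 ± 0.20 and Nfkbia by 0.92 ± 0.15. The subunits Nfkb1 and Nfkb2 changed by 0.79 ± 0.16 and 1.25 ± 0.25, and Relb by 0.95 ± 0.32, a call lost without Control 43, Control 45, QYD 65 or QYD 68 (0.81 to 0.96). Tlr4 lost its call without Control 44 (0.94, adjusted p = 0.054), and Tnfaip3 and Zc3h12a stood at 3.02 and 3.43 without Control 45.

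Of 15 tested inflammasome and pyroptosis genes, 5 of which reached the minimum in all Control libraries, 6 rose, against 20.5% of all genes, and none was lower. The kinase Nek7, which licenses NLRP3, stood at 13.3, 7.57 and 14.2 CPM and 110.4, 124 and 133 (1.38 ± 0.24, adjusted p = 0.001). Nlrp3 was near 0 in Control (0, 0.0989 and 0.101 CPM) and stood at 2.25, 1.96 and 2.43 CPM in QYD. Casp4, a sensor of intracellular LPS, changed by 1.89 ± 0.32, the pore-forming Gsdmd by 1.02 ± 0.25 and Casp1, at 0.68 ± 0.45, was not called on the composition scale.

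Interferon-stimulated genes rose in 23 of 47 cases, 41 of which reached the minimum in all Control libraries, and 2 were lower on the composition scale, with medians of 0.78 and 2.82. The shares of all genes were 20.5% and 20.3%. Isg15 stood at 0.652, 0.445 and 1.51 CPM in Control, against 10.7, 10.5 and 6.13 in QYD, with 1.35 ± 0.32 (adjusted p = 0.0067) and 3.38 ± 0.35, and 1.98 on the composition scale without Control 45. Irf7, which drives interferon production, went from 6.27, 5.54 and 12.9 CPM to 96.6, 113 and 59.1 (1.41 ± 0.30), and Oas1a, an RNA sensor, from 1.25, 0.841 and 2.47 to 23.3, 27.0 and 15.2 (1.81 ± 0.29). The inducible proteasome subunit Psmb8 changed by 1.89 ± 0.34 and the peptide transporter Tap1 by 1.12 ± 0.31. Several classical members were not called on the composition scale, among them Ifit1 (0.78 ± 0.32), Ifit3 (0.63 ± 0.35), Irf9 (-0.15 ± 0.12) and the GTPases Gbp2 (1.54 ± 0.69), Irgm1 (0.08 ± 0.22) and Iigp1 (1.26 ± 0.57). Within QYD Gbp2 ranged widely at 114, 112 and 28.1 CPM, against 4.97, 2.13 and 13.8 in Control. Ifi27 was lower on the composition scale (-1.93 ± 0.17) and not called on library totals (0.09 ± 0.15). The core GAAANNGAAA occurred in 22 of 47 promoter windows of the list (46.8%), against 3.44% of all windows, in genes that rose (Isg15, Oas1a, Trim30a, Ifitm3 and B2m among them) and in genes with no call on the composition scale (Ifit1, Ifit3, Gbp2 and Irgm1 among them). The calls of this list moved with single libraries: the count that rose was 14 without Control 44 and 15 without QYD 66. Tap1 lost its call without Control 43 or Control 44 (0.90 to 0.95) and B2m without Control 43, Control 44, QYD 65 or QYD 66 (0.72 to 0.96). Calls were gained on the composition scale by Gbp2 without Control 45 or QYD 68 (1.93 to 2.45), by Iigp1 without QYD 68 (1.63, adjusted p = 0.033), by Ifit3 without QYD 68 (0.90, adjusted p = 0.042) and by Ifit1 without Control 43 (1.19, adjusted p = 0.023).

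Acute phase and complement genes rose in 18 of 31 tested cases, against 20.5% of all genes, and 2 were lower on the composition scale, against 20.3%. The minimum was reached in all Control libraries by 20 of those tested. Lcn2 (chr2:32384637-32387739), an iron-binding protein of injured epithelium and neutrophils, stood at 13.6, 19.5 and 295 CPM in Control, against 5295, 4680 and 4161 in QYD. Control 45 was well above the other Control libraries and far below QYD, and the change was 3.44 ± 0.92 (adjusted p = 0.012) on the composition scale and 5.43 ± 0.93 on library totals, or 6.10 on the composition scale without Control 45. Saa3, a serum amyloid A of inflamed tissue, had the same shape at 2.56, 2.87 and 42.5 CPM and 748, 656 and 392 (3.22 ± 0.83, 5.70 without Control 45). Pigr, which carries immunoglobulin A across epithelium, stood at 3.41, 16.3 and 45.1 CPM and 908, 689 and 318 (2.85 ± 0.72), and ceruloplasmin (Cp), the copper carrier, at 8.23, 8.36 and 18.1 and 237, 178 and 226 (2.202 ± 0.26). Complement factor B (Cfb) changed by 1.95 ± 0.49, while complement C3 was not called on the composition scale (0.49 ± 0.37, against 2.59 ± 0.40). The metal-binding Mt1 and Mt2 were not called there either, at 0.51 ± 0.26 and 0.63 ± 0.30. Itih4, a serum protein of the acute phase, fell, at -2.70 ± 0.28 and -0.69 ± 0.25. Without Control 45 Pigr stood at 3.94 and Cfb at 2.79. Itih4 lost its call on library totals without Control 44, QYD 65 or QYD 68 (-0.40 to -0.60), and Mt1 and Mt2 were called higher on the composition scale without Control 43 (0.81, adjusted p = 0.031) and without QYD 65 (0.89, adjusted p = 0.025).

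The Reg family encodes secreted lectins of injured pancreas and gut, and it was divided. Of 6 tested members, 2 rose, 3 were lower on the composition scale and 5 were higher on library totals, against 20.5%, 20.3% and 93.8% of all genes. Reg3g, an antibacterial lectin, stood at 82.5, 60.3 and 467 CPM in Control, against 7386, 8150 and 5500 in QYD, with 3.11 ± 0.66 (adjusted p = 0.0036) and 5.11 ± 0.66, and 4.55 on the composition scale without Control 45, the highest Control library. Reg3b stood at 1432, 646 and 2198 CPM and 14486, 16501 and 13398, and changed by 1.36 ± 0.36 and 3.38 ± 0.34. Reg1 stood at 8882, 7496 and 9105 CPM and 15173, 20092 and 15619, and Reg2 at 8429, 4778 and 9136 and 16992, 19482 and 16942. Both were higher in every QYD library on library totals (1.00 ± 0.15 and 1.26 ± 0.20) and were called lower on the composition scale (-1.02 ± 0.22 and -0.76 ± 0.26), where the Reg2 groups overlapped and its call was lost without Control 43, Control 45, QYD 65, QYD 66 or QYD 68 (-0.61 to -0.83). Reg3d was lower on the composition scale (-1.68 ± 0.27) and not called on library totals (0.34 ± 0.22).

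Duct genes and markers of injured epithelium rose in 27 of 48 tested cases, 33 of which reached the minimum in all Control libraries, and 4 were lower on the composition scale. The shares of all genes were 20.5% and 20.3%. Clusterin (Clu; chr14:65968483-65981548), a secreted chaperone of injured epithelium, went from 605, 569 and 1559 CPM to 20705, 17409 and 16888, with 2.32 ± 0.33 (adjusted p = 0.00036) and 4.33 ± 0.35, and 2.90 on the composition scale without Control 45. The keratins of simple epithelium Krt8, Krt18 and Krt19 changed by 1.58 ± 0.29, 1.19 ± 0.23 and 1.82 ± 0.35. Krt19, the duct keratin, stood at 10.7, 9.499 and 14.2 CPM in Control, against 145, 115 and 221 in QYD, with no overlap. The tight junction gene Cldn4 went from 3.26, 1.19 and 3.18 CPM to 77.5, 45.6 and 113 (2.96 ± 0.67) and the adhesion molecule Epcam from 6.57, 7.77 and 11.4 to 124, 112 and 119 (1.77 ± 0.18). Cd44, a hyaluronan receptor, and Spp1, osteopontin, changed by 2.11 ± 0.37 and 1.61 ± 0.45. Fut2, which adds fucose to mucosal glycans, and Defb1, a defensin, changed by 3.32 ± 0.55 and 3.05 ± 0.68, or by 5.55 and 5.04 without Control 45. Cd44 stood at 2.77 without Control 45. Spp1 lost its call without Control 43, Control 44 or QYD 68 (0.92 to 1.51).

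Not every gene tied to ducts was higher. Sox9, the factor that marks ducts and acinar cells turning duct-like, stood at 1.81, 1.73 and 1.51 CPM in Control, against 5.54, 3.40 and 3.65 in QYD: it was lower on the composition scale (-0.73 ± 0.21, adjusted p = 0.016) and higher on library totals (1.31 ± 0.26). Muc1, an epithelial mucin, was not called on the composition scale (-0.06 ± 0.15). The trefoil peptide Tff2 fell, from 680.4, 753 and 569.7 CPM to 199, 194 and 180.0 (-3.83 ± 0.18 and -1.80 ± 0.16). The composition call of Sox9 was lost without Control 43 or QYD 66 (-0.61 to -0.63).

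Genes of the actin cytoskeleton rose in 35 of 45 cases, against 20.5% of all genes, and 2 were lower on the composition scale, against 20.3%. The minimum was reached in all Control libraries by 43 of them. Actn1, which bundles actin, went from 9.93, 14.3 and 18.9 CPM to 209.6, 163 and 230.2 (1.81 ± 0.30, adjusted p = 0.00082), and Tmsb10, which holds actin monomers, from 6.77, 5.34 and 11.9 to 114, 106 and 122 (1.82 ± 0.25). Both cytoplasmic actins rose, Actb by 0.67 ± 0.13 and Actg1 by 0.81 ± 0.19. The Arp2/3 subunit Arpc1b changed by 1.36 ± 0.14 and the capping protein Capg by 1.80 ± 0.17. The mesenchymal filament Vim was not called on the composition scale (0.37 ± 0.29).

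Targets of p53 and cell death genes rose in 29 of 46 cases, against 20.5% of all genes, and 3 were lower on the composition scale, against 20.3%. The minimum was reached in all Control libraries by 31 of them. Ccng1, a p53-induced cyclin, went from 18.4, 13.6 and 33.0 CPM to 368, 354 and 316 (1.98 ± 0.25, adjusted p = 0.00018), and Phlda3, which restrains AKT, from 0.753, 0.445 and 2.07 to 31.1, 25.2 and 24.0 (2.59 ± 0.33). The cell cycle inhibitor Cdkn1a (p21) changed by 0.88 ± 0.17 and Mdm2, which degrades p53, by 1.08 ± 0.15. Among death genes, the pore formers Bax and Bak1 changed by 1.89 ± 0.25 and 1.76 ± 0.18. The necroptosis genes Ripk3 and Mlkl stood at 0.151, 0.0989 and 0.403 and 0.301, 0.198 and 1.26 CPM in Control, and at 5.02, 3.81 and 2.53 and 14.4, 13.7 and 9.62 in QYD (2.06 ± 0.43 and 2.39 ± 0.40). The initiator Casp9 was lower on the composition scale (-2.06 ± 0.26) and not called on library totals (-0.02 ± 0.25), and the survival gene Mcl1 was not called on the composition scale (-0.21 ± 0.16). Without Control 45 Phlda3, Ripk3 and Mlkl stood at 3.42, 2.83 and 3.58.

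Targets of NRF2 and redox genes went both ways. Of 45 tested, 19 rose, 13 were lower on the composition scale and 4 fell, against 20.5%, 20.3% and 0.99% of all genes. Their medians were 0.41 and 2.44, and without Control 45 the composition median was 0.18 with 18 higher and 14 lower calls. Haem oxygenase (Hmox1) went from 1.56, 1.34 and 4.08 CPM to 43.6, 24.4 and 18.9 (1.58 ± 0.46), and Nfe2l2, which encodes NRF2, changed by 1.07 ± 0.21. The glutathione transferases Gstm1 and Gstm2 fell, Gstm1 from 56.9, 74.8 and 44.7 CPM to 35.0, 29.7 and 25.3 (-3.01 ± 0.20 and -0.97 ± 0.20) and Gstm2 with -3.50 ± 0.18 and -1.47 ± 0.19. The glutathione synthesis gene Gclc (0.48 ± 0.62) and Srxn1 (0.42 ± 0.50) were not called on the composition scale, Gclm was lower there (-0.57 ± 0.13), and so was the cystine transporter Slc7a11 (-1.85 ± 0.44). The antioxidant response element core TGACNNNGC occurred in 12 of 51 windows of the list (23.5%), against 12.4% of all windows. Of 20 heat shock protein genes 5 rose and 4 were lower on the composition scale, near the 20.5% and 20.3% of all genes: Hspb1 changed by 1.85 ± 0.21 and Hspa8 by 0.57 ± 0.13, and the mitochondrial Hspa9 by -0.66 ± 0.14. Hmox1 lost its call without Control 43, Control 44 or QYD 65 (1.30 to 1.40) and stood at 2.22 without Control 45. Srxn1 was called higher without Control 43 (1.58, adjusted p = 0.0072), and Slc7a11 stood at -1.09 without Control 43.

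In metabolism, counts of genes that rose are read against the 20.5% of all genes that did so. Counts of genes lower on the composition scale are read against 20.3%. Of 30 cholesterol genes 12 rose and 3 were lower on the composition scale (Lss, Fasn and Scd1), with medians of 0.48 and 2.49. Hmgcs1, an entry enzyme of the route, went from 2.11, 2.62 and 3.23 CPM to 29.7, 20.0 and 28.5 (1.28 ± 0.22, adjusted p = 0.0012). Of 24 tested glycolysis genes 15 rose and 3 were lower on the composition scale. Eno1 went from 11.1, 13.8 and 20.6 CPM to 216, 168 and 182 (1.62 ± 0.18), Gapdh from 58.4, 61.4 and 92.5 to 806, 674 and 593 (1.26 ± 0.16), and Hif1a, the hypoxia factor that drives the route, changed by 1.18 ± 0.22. Gapdh, often used as a reference gene, was therefore higher in QYD on both scales. Hexokinase 2 (Hk2) was lower on the composition scale (-0.82 ± 0.27). The call of Hk2 was lost without Control 43, Control 45, QYD 65, QYD 66 or QYD 68 (-0.69 to -0.86).

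Matrix genes and metalloproteinases rose in 22 of 37 tested cases, against 20.5% of all genes, and 3 were lower on the composition scale, against 20.3%. The minimum was reached in all Control libraries by 26 of those tested. Mmp7, a metalloproteinase of injured epithelium, stood at 1.00, 0.693 and 5.60 CPM and 109.7, 85.8 and 79.3 (3.22 ± 0.52, adjusted p = 0.00076, 4.69 without Control 45). The inhibitor Timp1 stood at 0.452, 0.445 and 6.75 CPM and 82.0, 69.6 and 61.0 (2.79 ± 0.65, 5.24 without Control 45), while Timp2 and Timp3 were lower on the composition scale (-1.40 ± 0.25 and -1.02 ± 0.19). Of the fibrillar collagens, Col1a1 changed by 0.93 ± 0.29 and Col3a1 by 1.34 ± 0.29. The laminin chain Lama5 changed by 1.73 ± 0.21, and Lamb3 was lower on the composition scale (-0.72 ± 0.15). Col1a1 lost its call without Control 43, Control 44, QYD 65 or QYD 66 (0.63 to 0.93).

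Of 26 tested AP-1 and immediate early genes 11 rose and 2 were lower on the composition scale, against 20.5% and 20.3% of all genes. Without Control 45 there were 8 and 3, and 17 of those tested reached the minimum in all Control libraries. Junb went from 3.11, 1.88 and 2.97 CPM to 39.9, 42.4 and 38.3 (1.90 ± 0.23, adjusted p = 0.00015), Egr1 changed by 1.71 ± 0.43 and Ier3 by 2.61 ± 0.56. Jun (0.47 ± 0.18) and Atf3 (0.66 ± 0.41) were not called on the composition scale, and Myc was lower there (-1.37 ± 0.22) and higher on library totals (0.67 ± 0.23). Of 32 tested cell cycle genes, 9 of which reached the minimum in all Control libraries, 11 rose and 1 was lower on the composition scale. The count that rose was 8 without Control 45 and 7 without Control 44 or QYD 65, the latter near the 20.5% of all genes. The replication helicase Mcm6 changed by 1.77 ± 0.18, while the proliferation marker Mki67 differed within QYD at 12.3, 7.26 and 2.08 CPM, and was not called on the composition scale (1.95 ± 0.79, adjusted p = 0.069) but was without QYD 68 (2.35, adjusted p = 0.025). Lysosome and autophagy genes rose in 13 of 41 cases, against 20.5% of all genes, and 4 were lower on the composition scale, against 20.3%. The cathepsins Ctsb, which can activate trypsinogen, and Ctsl, which can inactivate it, changed by 0.71 ± 0.13 and 1.14 ± 0.24, legumain (Lgmn) by 1.53 ± 0.23, and the inhibitor cystatin C (Cst3) was lower on the composition scale (-1.97 ± 0.13). Egr1 stood at 2.55 without Control 43 and Ier3 at 3.20 without Control 45, and Myc lost its call on library totals without Control 45 or QYD 65 (0.50 to 0.58).

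Of 19 circadian clock genes 8 were lower on the composition scale, against 20.3% of all genes, and the others were not called there. On library totals 15 were higher, against 93.8% of all genes. Per2 stood at 7.22, 1.14 and 2.07 CPM in Control, against 5.23, 4.84 and 4.05 in QYD, with overlapping groups, at -1.63 ± 0.53 on the composition scale and 0.44 ± 0.47 on library totals, the second not called, and Dbp stood at -2.57 ± 0.59 and -0.48 ± 0.55. Of 23 tested glucocorticoid and fasting genes 4 rose, 10 were lower on the composition scale and 2 fell, against 20.5%, 20.3% and 0.99% of all genes. Fgf21, a fasting hormone made by acinar cells and liver, stood at 5.17, 2.82 and 0.907 CPM and 0.993, 0.464 and 0.506 (-4.24 ± 0.57 and -2.17 ± 0.55). Cebpd, a factor of acute inflammation, rose from 4.57, 3.02 and 7.06 CPM to 56.9, 57.2 and 72.9 (1.68 ± 0.29). Tsc22d3, a classical glucocorticoid target, was lower on the composition scale (-0.80 ± 0.16, against 1.23 ± 0.18). In prostaglandin and leukotriene synthesis 4 of 17 tested genes rose, near the 20.5% of all genes, among them Ptges (1.80 ± 0.49) and Alox5ap (1.68 ± 0.24). Ptgs2 (COX-2) differed within QYD at 0.784, 2.01 and 3.60 CPM, against 0, 0.0989 and 0.353 in Control, and was not called on the composition scale (1.86 ± 0.85, adjusted p = 0.1). Ptges lost its call without Control 43 (1.66, adjusted p = 0.051), and Ptgs2 was called higher without QYD 65 (2.31, adjusted p = 0.023). The composition value of Ptgs2 was 3.39 without Control 45 and 1.13 without QYD 68, neither of them a call. Several of these results moved without Control 43: Per2 then stood at -0.43 and 1.55, the second a call, Dbp at -1.51 and Fgf21 at -3.51 and -1.505. The composition call of Per2 was lost without Control 43, QYD 65, QYD 66 or QYD 68 (-0.43 to -1.66), and the count of clock genes lower there was 5 without QYD 65 or QYD 68 and 4 without QYD 66.

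Markers of cell types describe what the tissue RNA held; their sums are on library totals, where the median gene stood 2.09 log2 units higher. Neutrophil markers summed to 45.9, 23.5 and 50.6 CPM in Control, against 631, 464 and 640.3 in QYD. Of 23 tested markers, 5 of which reached the minimum in all Control libraries, 19 rose, against 20.5% of all genes. The summed levels of the groups did not overlap. Csf3r, the receptor for the neutrophil growth factor, went from 0.452, 0.346 and 1.06 CPM to 24.2, 17.2 and 24.6 (3.14 ± 0.36, adjusted p = 0.0001). Of granule genes made early in marrow, Ngp rose (2.41 ± 0.35), Camp was not called on either scale (-0.75 ± 0.80 and 1.24 ± 0.76), and Ltf not on the composition scale (1.91 ± 0.83). The median of the tested markers was 3.10, 3.76 without Control 45 and 2.72 without QYD 68. Without Control 45 Csf3r stood at 3.73, Ltf at 2.74 and Camp at -1.35 on the composition scale, the last 2 still without a call.

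Monocyte and macrophage markers summed to 224, 150.1 and 164 CPM in Control, against 765, 715 and 440.0 in QYD. Of 28 tested, 9 rose and 2 were lower on the composition scale (Lyz1 and Apoe), against 20.5% and 20.3% of all genes. The minimum was reached in all Control libraries by 20 of those tested. Those that rose included the scavenger receptor Msr1, from 0.753, 0.594 and 1.61 CPM to 28.1, 22.4 and 20.6 (2.55 ± 0.35), the inflammatory monocyte marker Ly6c2 (2.14 ± 0.39), the Fc receptor Fcgr4 (2.40 ± 0.42) and Arg1, from 0.0502, 0.346 and 2.87 CPM to 52.1, 35.9 and 24.7 (3.06 ± 0.72, 5.46 without Control 45). The general macrophage markers Cd68 and Adgre1 (F4/80) rose too (1.28 ± 0.30 and 1.03 ± 0.35), while others were not called on the composition scale, with Csf1r at -0.17 ± 0.23, Mrc1 at -0.14 ± 0.34 and C1qa at -0.35 ± 0.35. The median of the list was 0.33. Without Control 45 Fcgr4 stood at 3.11.

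Lymphocyte markers varied within QYD and within Model. B and plasma cell markers summed to 66.3, 69.1 and 5.87 CPM in QYD, with QYD 68 at the level of Control (11.3, 3.27 and 4.13 CPM). In Model 56, 57 and 59 they summed to 7.84, 57.5 and 4.55 CPM. Cd79a, part of the B cell receptor, stood at 1.40, 0.544 and 0.655 CPM in Control, against 5.64, 9.38 and 0.456 in QYD (0.49 ± 1.12, adjusted p = 0.75 on the composition scale, 2.56 ± 1.06 on library totals). No B cell marker was called on the composition scale, with all libraries or without Control 45 (0 higher), and 1 was called higher without QYD 68. T and NK cell markers summed to 4.87, 1.29 and 3.43 CPM in Control, against 38.6, 50.3 and 19.5 in QYD and 19.6, 49.3 and 17.8 in Model. Of these 20 markers 9 were tested, none of them at the minimum in all Control libraries. The call of Cd79a on library totals was lost without Control 44, Control 45, QYD 65 or QYD 66 (1.80 to 2.49).

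Endocrine markers were lower in QYD on the composition scale. Of 21 tested islet genes 14 were lower there, against 20.3% of all genes, none was higher, and 4 fell, against 0.99% of all genes. Their medians were -1.92 and 0.07. Insulin (Ins2) stood at 185, 191 and 298 CPM in Control, against 98.6, 137 and 150.4 in QYD, and somatostatin (Sst) at 3.06, 4.70 and 4.84 and 1.36, 2.11 and 1.52. Both fell, with Ins2 at -2.78 ± 0.32 (adjusted p = 9.9e-05) and -0.80 ± 0.29, and Sst at -3.34 ± 0.27 and -1.33 ± 0.30. Glucagon (Gcg) was lower on the composition scale (-2.15 ± 0.47) and not called on library totals (-0.13 ± 0.46). The summed islet markers overlapped between the groups, at 333, 351 and 536 CPM and 242, 335 and 318. The count that fell was 2 without Control 45 or QYD 65, and Ins2 lost its call on library totals without Control 45 or QYD 65 (-0.54 to -0.64).

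Vessel and connective tissue markers had medians of 0.13 and -0.45 on the composition scale. Of 17 endothelial genes 5 rose and 2 were lower on the composition scale, against 20.5% and 20.3% of all genes. Those that rose were Emcn and 4 adhesion molecules that are induced on inflamed vessels: Selp went from 0.552, 0.198 and 1.41 CPM to 19.5, 9.38 and 19.5 (2.47 ± 0.48), Icam1 from 0.953, 1.04 and 2.42 to 34.9, 22.7 and 21.0 (2.11 ± 0.27), Sele from 0.0502, 0 and 0.252 to 2.77, 1.34 and 2.53 (2.42 ± 0.68), and Vcam1 changed by 1.34 ± 0.36. The lower ones were Plvap (-0.56 ± 0.16), of endothelial diaphragms, and the angiopoietin receptor Tek (-1.65 ± 0.35). Pecam1 (0.13 ± 0.20) and Cdh5 (-0.10 ± 0.29) were not called on the composition scale. Leaving out single libraries, the count that rose was 3 without Control 43 or Control 44. Emcn (0.43 ± 0.15) lost its call without Control 43, Control 44, Control 45, QYD 66 or QYD 68 (0.36 to 0.45), Sele without Control 43 (2.15, adjusted p = 0.055) and Vcam1 without Control 44 (1.08, adjusted p = 0.061). Without Control 45 Selp stood at 3.37 and Sele at 4.32, and without Control 44 Sele stood at 1.83. Of 14 tested stellate cell and fibroblast markers 2 rose (Col1a1 and Col3a1) and 4 were lower on the composition scale, to be read against the same shares of all genes. Acta2, the actin of activated stellate cells, was not called there (-0.81 ± 0.35). Col1a1 lost its call without Control 43, Control 44, QYD 65 or QYD 66 (0.63 to 0.93), and Acta2 was called lower without Control 43 (-1.08, adjusted p = 0.03).

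Adipocyte markers summed to 151, 119.6 and 76.1 CPM in Control, against 362, 245 and 162 in QYD. On the composition scale 3 of 14 tested were lower, near the 20.3% of all genes, with 4 without Control 45. Of the 3 lower markers 2 fell, or 1 without Control 43 or Control 45 and 0 without Control 44, QYD 66 or QYD 68. Of all genes 0.99% fell. Car3 fell, from 23.9, 12.8 and 0.605 CPM to 5.64, 2.73 and 0.608 (-4.18 ± 0.97 and -2.06 ± 0.91), with overlapping groups. Its call on library totals was lost without Control 43, Control 44, QYD 66 or QYD 68 (-1.16 to -2.04), and its composition value was -3.22 without Control 43 and -4.88 without QYD 65. Red blood cell markers, at 76.6, 28.8 and 30.2 CPM in Control, against 77.3, 25.4 and 25.4 in QYD, were highest in Control 43 and QYD 65. All 5 tested were lower on the composition scale, against 20.3% of all genes. None was called on library totals, where 0.99% of all genes were lower, and 2 were called lower there without QYD 65. Markers of intestinal epithelium and liver, which could come with the dissection, were low: 2 of 11 intestinal and 4 of 12 liver markers passed the filter. The part of these other cell types in the results above was not tested.

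**Figure D5:**
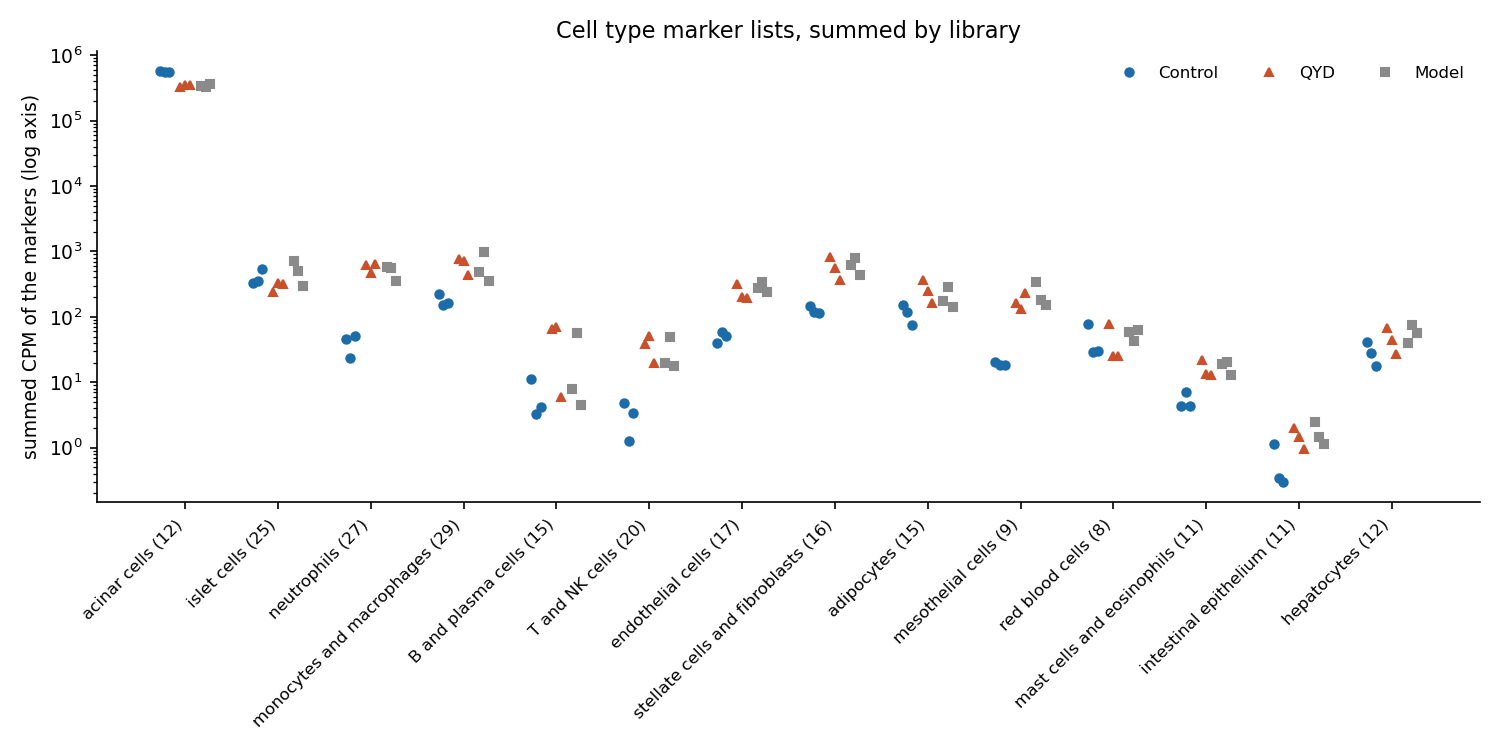
Summed CPM (log axis) of the marker list of each of 14 cell types, 1 symbol per library for Control, QYD and Model. Sums of 8 lists, neutrophils among them, lie higher in every QYD library than in any Control library, as did 93.0% of single genes on library totals. Acinar sums lie lower in every QYD library, and B cell sums spread from 5.87 to 69.1 CPM within QYD.

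Set beside Model, which had the same injections without the decoction, the QYD libraries gave no call. Of the 12828 genes 0 (0.0%) passed for QYD versus Model, with a smallest adjusted p of 0.826, and 750 genes had an unadjusted p under 0.05 (505 on library totals, where 0 passed as well). Serpini2 stood at 15.3, 13.8 and 38.1 CPM in Model and differed from QYD by 0.31 ± 0.40, Clps at 2575, 2464 and 3369 by 0.05 ± 0.21, Amy2a5 at 126620, 118560 and 137220 by 0.37 ± 0.23, and the enzyme share of counts in Model was 47.2% ± 2.98 (SD, n = 3), against 48.6% ± 3.52 in QYD. Il1b stood at 15.2, 13.4 and 9.47 CPM in Model (0.67 ± 0.33), S100a9 at 116, 74.7 and 56.7 (0.41 ± 0.39), Lcn2 at 4025, 5574 and 5308 (0.03 ± 0.83), Reg3g at 4096, 7544 and 7889 (0.20 ± 0.61) and Clu at 24414, 20495 and 15623 (-0.01 ± 0.31). These values do not show that the groups are alike. The median SE of 0.208 on the composition scale is that of QYD versus Control. In a simulation of that comparison with few changed genes, a 1.5-fold change was recovered in 17.9% of cases and a 2-fold change in 92.5%. How small a change QYD versus Model could call was not tested.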

How the data were processed

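Polyadenylated RNA of mouse pancreas was sequenced in 3 groups of 3 libraries (Control, Model and QYD) after Trizol extraction, per the labels' protocols. Tools named in the submitters' processing notes are RSEM 1.2.12, HISAT2 2.0.4 and Bowtie2 2.2.5, and the genome is GRCm38.p6. The role of each tool and whether counting used strand are not given in the sources used here. Per the file headers, the authors deposited a read count for every gene and library, and this is taken here as an estimated count of RSEM. Of these values 93.5% were whole. The authors also deposited FPKM (per gene length and library total), which served only as an alternative, and TPM, which the authors deposited beside it, served only for the enzyme share. Of 17132 genes, 17031 matched the RefSeq annotation of GRCm38.p6 by gene identifier, which gave coordinates and promoter windows, and 1 symbol is duplicated.

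Counts were rounded, and edgeR 4.0.16 was run in R 4.3.3. Its default expression filter by group kept 12828 genes, of which 9584 reached the minimum in all 3 Control libraries, and removed 4304. The quasi-likelihood model had group as its single factor over the 9 libraries (6 residual degrees of freedom). It was fitted once with TMM factors and once with all factors at 1, with Benjamini-Hochberg adjustment over all tested genes. A log2 fold change over its SE equals, in size, the root of the F statistic. The common biological coefficient of variation came to 0.175, and the SE had a median of 0.208 on the composition scale and 0.249 on library totals. Libraries held 19112923 to 20212744 counts, and 10 counts, the filter's minimum, are worth about 0.515 CPM. The test was checked on simulated counts for QYD versus Control (12734 genes, drawn independently): it recovered 17.9% of 1.5-fold, 92.5% of 2-fold and 100% of 4-fold changes and made 7 false calls. Only 67, 67 and 66 genes were changed by these folds, and genes of low mean level were not among them. Far more genes were called in the data, which makes the cut-off on adjusted p less strict there. These shares therefore do not measure what the data could call.

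The comparison, its gene lists and its motifs were chosen with earlier results of these data known. Lists are described by counts and medians, with no test of a list. Named genes were the 10 highest and the 10 lowest composition values among genes called in the same direction on both scales whose groups do not overlap and whose higher group averages 10 CPM or more, the 5 with the most counts among genes lower on the composition scale and higher on library totals, the anchor genes of each list whatever their values, and up to 3 further members of a list with the smallest p. Predicted genes and clone names were left out of the first 3 parts of this rule. Other genes in the text (Amy2a5, Cela1, Cela2a, Klk1, Psma1, Psmd6, Rab11a and Slc30a2, and those of the other observations apart from members of lists named by the rule, such as Spink1 and Lgr5) were chosen after their values were seen. Alternatives were RLE, upper quartile and TMM scaling without the 50 most abundant genes, other filters and thresholds, only the compared libraries in the fit, DESeq2 1.42.0, limma 3.58.1 (voom, and on log2 FPKM with pseudocounts of 1 and 0.1), and each of the 6 libraries left out in turn. Promoter windows were searched on both strands.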

Additional observations from a re-analysis of the deposited data

How the results depend on the processing

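No paired analysis was possible because QYD and Control share no replicate numbers. With a 2-fold threshold added, the composition scale gave 2463 calls, 1308 higher and 1155 lower. Leaving out 1 library at a time it gave 4238 to 4931 calls, 2080 to 2429 higher and 2158 to 2502 lower, and library totals gave 11873 to 12364 calls, 11731 to 12254 higher and 105 to 142 lower. Under the other scalings, filters, tests, thresholds and choice of libraries, both scales stayed within 1.5 times their counts, with 4257 to 6359 calls on the composition scale. The difference in enzyme share was -27.7 points in TPM and -30.1 to -33.6 with 1 library left out. Among single genes, Per3, not called on the composition scale with all libraries, ran from -0.98 to 1.37 there with 1 library left out, the latter a call without Control 43, and Hba-a2 ran from -0.86 to 0.55 on library totals, the former a call without QYD 65; the cause was not tested. On the composition scale 52 named genes lost their call and 44 gained one under at least 1 alternative, and on library totals 34 and 19 did. In the simulation, where few genes were changed, most 1.5-fold changes were not called. In the data the composition scale gave 5222 calls without the 2-fold threshold, so many calls were of smaller changes.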

Other observations

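Some genes not described above also differed between QYD and Control. The trypsinogen-like Gm2663 (chr6:40995822-40999479) stood at 139, 63.6 and 747 CPM in Control, against 15476, 13245 and 19670 in QYD, with 3.70 ± 0.72 (adjusted p = 0.0022) on the composition scale and 5.67 ± 0.72 on library totals (edgeR). Its neighbour 1810009J06Rik (chr6:40964772-40968427), also trypsinogen-like, stood at 61.4, 22.7 and 205 CPM and 3556, 4030 and 5156, with 3.49 ± 0.65 and 5.46 ± 0.63. In both, Control 45 was the highest Control library and every QYD library lay above it, while the trypsinogen Prss2 was lower on the composition scale. In Model they stood at 10054, 12565 and 9854 and 1693, 2954 and 2970 CPM. Both are near copies of other trypsinogens, so how their reads were shared out is uncertain. The trypsin inhibitor Spink1 stood at 251, 216 and 264 CPM in Control, against 296, 423 and 373 in QYD, lower on the composition scale (-1.43 ± 0.20) and higher on library totals (0.58 ± 0.16).

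Of the tested genes, 27 had 0 counts in all 3 Control libraries. Lgr5, a receptor of epithelial stem cells, was one of them and stood at 1.57, 1.03 and 0.304 CPM in QYD and 0.156, 0.730 and 0.419 in Model. Gldc, the glycine-cleaving enzyme, was another, at 0.314, 0.515 and 0.304 CPM in QYD and 0.571, 0.835 and 0.419 in Model. These levels are near the filter's minimum, and no fold is given.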
